A study of Mus musculus with 6 samples.

Results

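Stimulation of naive CD4+ T cells for 6 h was compared with the unstimulated state (0 h) in wild-type (WT) mice and in mice labelled Zak-/-. The comparison used 4 of the 6 libraries of the series, chosen by their labels: WT at 0 h, WT at 6 h, Zak-/- at 0 h and Zak-/- at 6 h. Naive helper T cells (CD4+, with low CD44 among the gates) had been sorted by flow cytometry from the spleen and lymph nodes of C57BL/6 mice aged 6 to 8 weeks. They were stimulated in RPMI medium by antibodies against CD3, a part of the T cell receptor (TCR) complex, and against the costimulatory receptor CD28. The 0 h cells had no time in culture, so stimulation and culture cannot be told apart. Map3k20 encodes Zak, a kinase at the top of a MAP kinase cascade. The genotype label reads Zak-/-, while the culture notes describe T cell-conditional deficiency. Neither the Cre line nor the number of mice behind a library is given.

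Each genotype gave 1 library at each time, so the genotypes served as 2 pairs. Of 18446 genes in the table, 10347 were tested, those whose FPKM averaged at least 1 over the 6 libraries. FPKM are fragments scaled to transcript length and to the library's fragments, a level per transcript length. A gene is said to have risen or fallen where the limma fit over both pairs gave a Benjamini-Hochberg adjusted p below 0.05 and the log2(FPKM+1) difference reached 2-fold in the same direction in each pair. Where the adjusted p was met without 2-fold in both pairs, the gene is said to have passed on p alone. Folds are those of FPKM+1, and for low genes they are smaller than the ratio of the FPKM themselves. The fit measures the spread between the responses of the 2 genotypes and not between mice.

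A naive T cell is a small resting cell kept alive by cytokines and by transcription factors that hold it in quiescence. Signals from the TCR and CD28 act through calcium, MAP kinases, NF-kB and PI3K, and switch on immediate early transcription factors within the first hours. Cytokines, surface receptors, nutrient transporters and the machinery of ribosome assembly follow, and the cell grows before it first divides.

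The libraries had the markers of CD4+ T cells. All 6 T cell markers in the table (Cd3d, Cd3e, Cd3g, Cd4, Cd28 and Lck) were above 1 FPKM in each of the 4 libraries and summed to between 1657 and 1732 FPKM. Markers of B, myeloid, NK and erythroid cells summed to between 1.31 and 10.4 FPKM per list and library, and those of CD8 T cells to between 10.1 and 11.7. At 0 h, markers of regulatory T cells summed to 194 FPKM in WT and 222 in Zak-/-. Those of memory or effector T cells summed to 35.3 and 38.9. Whether all cells were naive was not tested. Map3k20 itself was near the detection limit, at 0.17 FPKM in WT and 0.10 in Zak-/- at 0 h and at 0.19 and 0.10 at 6 h, and was below the level tested. A gene-level value cannot show a deleted exon, so it does not check the genotype label. FPKM summed to between 496045 and 535248 over all genes in the 4 libraries, and total read numbers are unknown from these values. In bulk samples, fewer cells of a type and less RNA per cell cannot be told apart.

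At 6 h many genes were at least 2-fold higher than at 0 h, a part of them by far more, and few were at least 2-fold lower. In both pairs alike, 791 genes rose (7.64% of those tested) and 53 fell (0.512%). By adjusted p whatever the fold, more were lower (3433, 33.2%) than higher (2840, 27.4%). Counts within the lists below are to be read beside these shares. The median log2 difference of all genes tested was -0.075. FPKM are relative to the library, so a lower value does not show less RNA per cell, which was not measured. The median rise was 3.02-fold and the median fall 2.17-fold. Of the genes that rose, 218 did so at least 4-fold in both pairs, 71 at least 8-fold and 22 at least 16-fold, while no gene fell 4-fold. Together the 791 genes made up 3.15% of the FPKM sum of the WT library at 0 h and 10.1% at 6 h, and 3.12% and 10.7% in Zak-/-. Each gene that rose had both 6 h values above both 0 h values. The same held in reverse for the genes that fell, other than Slc28a2b. Every call had a limma adjusted p of 4.64e-08 or less, so the 2-fold rule in both pairs alone gave the same genes. Standard errors of the called log2 differences lay between 0.096 and 0.168.

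The number of genes that fell, most of them near 2-fold, varied with the scale and with the rule used. It was 115 with a pseudocount of 0.1 FPKM, 18 with 5, 103 with libraries scaled to a common sum and 150 by upper quartile. By upper quartile 707 rose, so that 82.5% of calls were higher against 93.7% without scaling. With no library left out, 144 genes were at least 2-fold lower in the WT pair and 157 in the Zak-/- pair. Runs with 1 library left out used a weaker rule than 2-fold in each pair, so their counts cannot show what that library did. With 1 library left out and 2-fold asked of the difference of means, 145 genes fell without WT at 0 h, 160 without WT at 6 h, 126 without Zak-/- at 0 h and 152 without Zak-/- at 6 h, and between 902 and 946 rose.

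The responses of the pairs were close. Across the genes tested, which are not independent replicates, the log2 differences of the pairs correlated at 0.931 (Pearson's r), and 8796 genes (85.0%) had the same sign in both. The median gap between the pairs was 0.157 on the log2 scale and the 99th percentile 0.85. A further 134 genes were at least 2-fold higher in WT alone and 148 in Zak-/- alone, of which 130 and 146 had the same sign in the other pair. For lower genes these numbers were 91 and 104, of which 87 and 99 had the same sign. Passing in one pair alone does not show that the genotypes differ. In opposite directions, 2-fold was reached by 2 genes. The genes at the threshold, a log2 difference of 1 in each pair, were close to each other. Fitm2, Mrpl21 and Clptm1l lay just inside, with up to 1.002 in the smaller pair, and Rilpl2, Cd6 and Xdh just outside, with 0.996 to 0.998. On the lower side Zfp467, Rell1 and Lipa lay just inside, with -1.003 to -1.012, and Pik3ip1, Kif3a and Arl5c just outside, with -0.997 to -0.999.

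**Figure D1:**
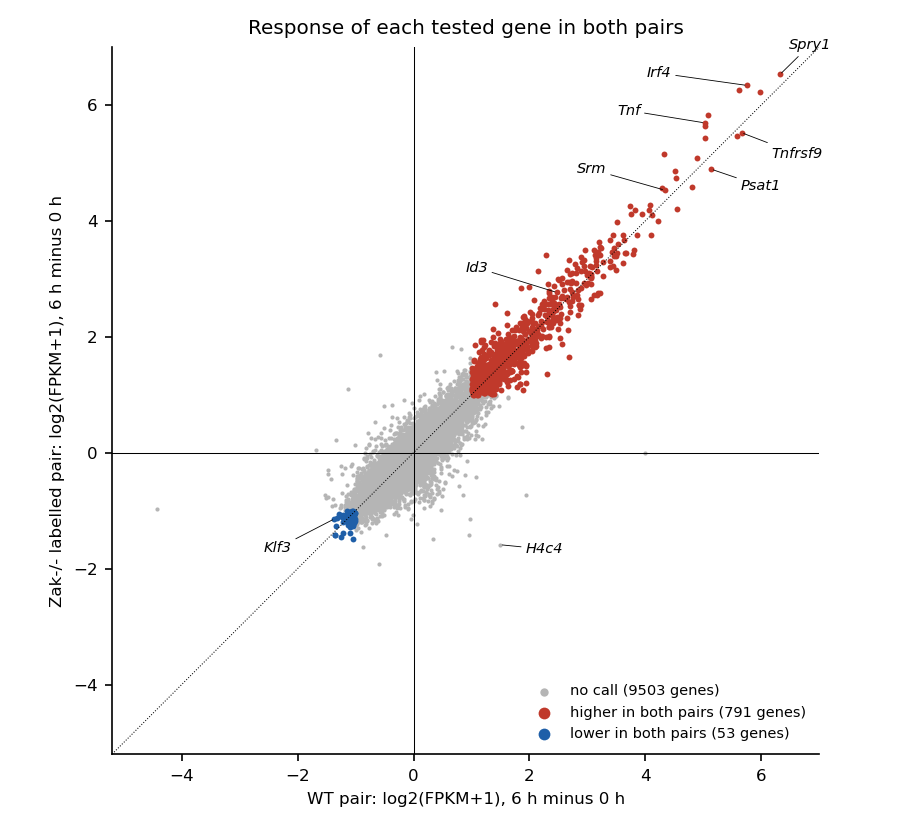
Each point is 1 of the 10347 genes tested, with its log2(FPKM+1) difference between 6 h and 0 h in the WT pair (horizontal) and in the pair labelled Zak-/- (vertical); red points rose and blue points fell in both pairs, and the dotted line marks equal responses. The points lie along the line (r = 0.931 across genes), with 791 red points reaching far to the upper right and 53 blue points close to the 2-fold limit.

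The gene with the largest rise in both pairs was Spry1, which encodes a Sprouty inhibitor of ERK signalling. Its level went from 0.80 to 143 FPKM in WT and 0.79 to 164 in Zak-/-, a rise of 80.2-fold in WT and 92.3-fold in Zak-/- (fitted log2 difference 6.43 ± 0.12, SE, adjusted p = 5.84e-33, limma). Akr1c18, a steroid dehydrogenase gene of the aldo-keto reductase family, went from 0.11 to 69.3 FPKM in WT and 0.11 to 81.8 in Zak-/-. Irf4, a transcription factor of activated lymphocytes, went from 2.89 to 209 FPKM in WT and 1.92 to 235 in Zak-/-. At rest Spry1 and Akr1c18 were below 1 FPKM in both genotypes and Irf4 was somewhat above it, and all 3 were far above it at 6 h. Hivep3, a zinc-finger gene, went from 0.24 to 59.96 FPKM in WT and 0.26 to 95.5 in Zak-/-. Tnfrsf9, which encodes the costimulatory receptor 4-1BB, went from 4.65 to 285 FPKM in WT and 5.72 to 307 in Zak-/-, a rise of 50.7-fold in WT and 45.9-fold in Zak-/-. Sema7a, which encodes a membrane-anchored semaphorin, stood at 0.50 and 0.27 FPKM at rest and at 48.03 and 53.5 at 6 h. Among the 15 largest rises there were thus a signalling inhibitor, transcription factors, a receptor and a guidance molecule. Sh3bp2, which encodes an adaptor protein, went from 1.38 to 53.05 FPKM in WT and 1.24 to 64.1 in Zak-/-. Bcl2a1d, a pro-survival gene, went from 1.51 to 69.5 FPKM in WT and 1.48 to 58.2 in Zak-/-, but it has near-identical copies and its value is uncertain. The others of the 15 were Rgs16, Egr1, Egr2, Egr3, Tnf, Psat1 and Slc7a5, described with their groups.

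The falls were small and even. St8sia6, a sialyltransferase gene, went from 70.9 to 26.9 FPKM in WT and 82.1 to 30.1 in Zak-/-, a fall of 2.57-fold in WT and 2.67-fold in Zak-/- (fitted log2 difference -1.39 ± 0.10, SE, adjusted p = 1.64e-14, limma). Rflnb, which encodes a regulator of filamin, went from 218 to 84.4 FPKM in WT and 221 to 82.3 in Zak-/-. Cdc25b, a phosphatase that activates cyclin-dependent kinases, went from 46.2 to 17.7 FPKM in WT and 40.7 to 16.2 in Zak-/-. In each of these genes all 4 values paired closely, with the 0 h values more than 2-fold above the 6 h values. Rnf125, a ubiquitin ligase gene, went from 70.6 to 29.3 FPKM in WT and 80.7 to 28.6 in Zak-/-. Cd55, which encodes a membrane protein that limits complement, went from 64.3 to 27.2 FPKM in WT and 64.8 to 24.3 in Zak-/-. Lgmn, which encodes the lysosomal protease legumain, went from 12.4 to 5.03 FPKM in WT and 10.4 to 4.20 in Zak-/-. Fanci, a gene of DNA crosslink repair, stood at 14.5 and 17.8 FPKM at rest and at 6.05 and 6.90 at 6 h. Tdrp, Tcp11l2 and Cep97, the last a centriole gene, fell between 2.16-fold and 2.27-fold. Tubb2a, a beta-tubulin gene with close copies, went from 211 to 89.96 FPKM in WT and 189 to 81.5 in Zak-/- and is uncertain for that reason. Slc28a2b, a nucleoside transporter gene with a near-identical copy, was higher in WT than in Zak-/- at both times (317 to 134 FPKM in WT and 134 to 61.8 in Zak-/-), so that its WT value at 6 h lay above its Zak-/- value at 0 h. Klf3, Pde2a and Rasgrp2 complete the 15 and stand with their groups.

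**Figure D2:**
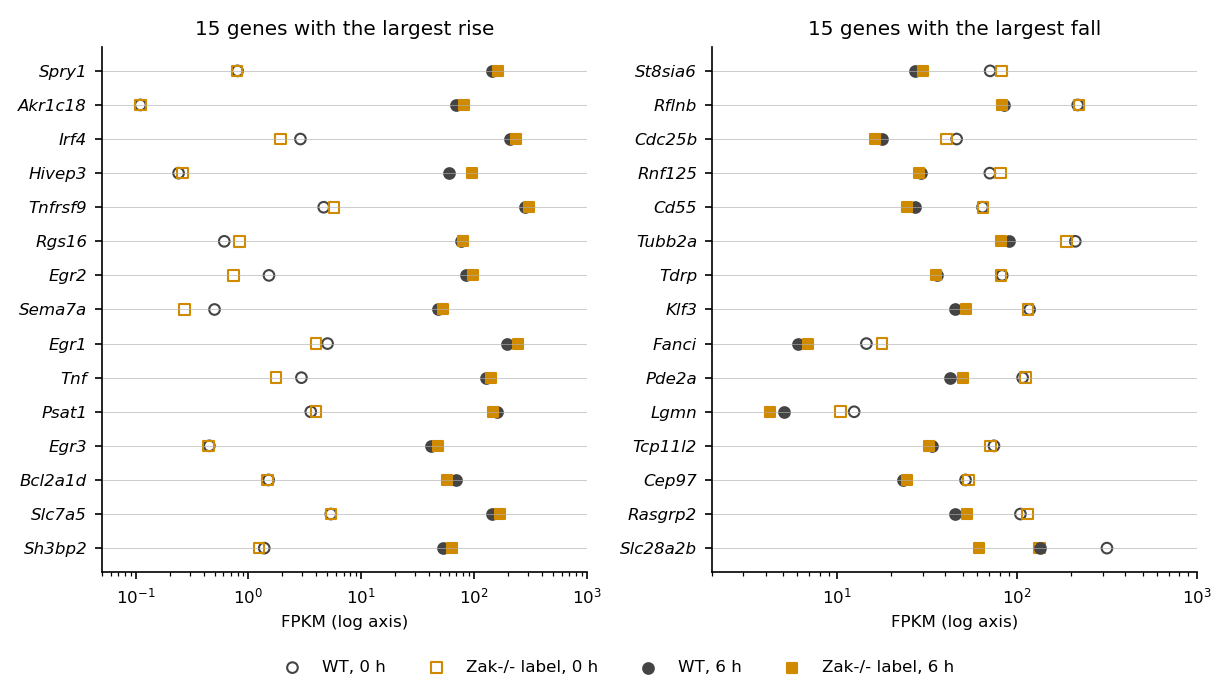
FPKM on a log axis of the 15 genes with the largest rise (left) and the 15 with the largest fall (right), 1 point per library (circles WT, squares Zak-/- label, open 0 h, filled 6 h). On the left the open and filled points are 1 to 3 decades apart in both genotypes, and on the right well under 1 decade, with Slc28a2b the one gene whose 0 h and 6 h points overlap.

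Immediate early and lineage transcription factors made up a group that rose in part. Of 33 TCR-induced factors in the table, 31 were tested, 15 rose and none fell, where 7.64% of all tested genes rose. Their median fitted log2 difference was 1.07, against -0.075 for all genes tested, and it was 0.94 in WT and 1.38 in Zak-/-. With no filter on low values the fitted median was 0.94. Egr1, Egr2 and Egr3 encode zinc-finger factors induced by ERK signalling. Egr1 went from 5.03 to 196 FPKM in WT and 3.97 to 245 in Zak-/-, Egr2 from 1.52 to 84.4 FPKM in WT and 0.74 to 98.2 in Zak-/-, and Egr3 from 0.45 to 41.99 FPKM in WT and 0.44 to 47.7 in Zak-/-. Myc, Nr4a1 and Fos were chosen after their values were seen. Myc, the driver of T cell growth, went from 11.5 to 166 FPKM in WT and 8.75 to 185 in Zak-/-. Nr4a1, which encodes the orphan receptor Nur77 and reports TCR signalling, had the highest 6 h level of the list, 734 FPKM in WT and 1010.0 in Zak-/-, from 35.9 and 27.4. Fos, a component of AP-1, went from 5.70 to 23.1 FPKM in WT and 3.26 to 29.7 in Zak-/-. Fosl1, of AP-1, and Nfkb1, of NF-kB, were named after their values were seen and rose too. Fosl1 was at 0.04 FPKM in WT and listed at 0 in Zak-/- at rest, and at 3.62 and 4.22 at 6 h, and Nfkb1 went from 74.04 to 189.6 FPKM in WT and 77.2 to 216 in Zak-/-. Some AP-1 and NF-kB genes did not meet the rule. Batf, an AP-1 partner gene, stood at 22.6 and 17.8 FPKM at 0 h and 17.7 and 16.8 at 6 h and did not pass on p. Junb (75.8 to 114 FPKM in WT and 76.5 to 150.1 in Zak-/-) and Relb (52.6 to 89.5 FPKM in WT and 50.7 to 100.95 in Zak-/-) passed on p alone. Rora and Prdm1 passed on p alone as lower, Prdm1, which encodes the repressor Blimp-1, at 2.02 to 1.26 FPKM in WT and 1.61 to 1.11 in Zak-/-.

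The Egr2 promoter is shown because its gene stood among the largest rises and its window holds a CArG box, the element of serum response factor. CArG boxes were found on either strand in 4 of 32 windows of the TCR-induced factors, and all 4 belong to Egr2, 1 of 22 genes of the list with a window. They were in 1.79% of windows of genes that rose, in none of 55 windows of genes that fell and in 1.2% of the windows of all genes tested. By gene the shares were close, 1.75% of genes that rose and 1.43% of all genes tested. A window ran from 250 bases before to 50 after an annotated RefSeq start on GRCm38.p6, and a gene can have several. Of 5 Egr2 windows 4 held the box, and the run below is the 250 bases before 1 of these starts, plus strand, chr10:67537619-67537868, with the box in capitals beginning 72 bases before the start.
Egr2: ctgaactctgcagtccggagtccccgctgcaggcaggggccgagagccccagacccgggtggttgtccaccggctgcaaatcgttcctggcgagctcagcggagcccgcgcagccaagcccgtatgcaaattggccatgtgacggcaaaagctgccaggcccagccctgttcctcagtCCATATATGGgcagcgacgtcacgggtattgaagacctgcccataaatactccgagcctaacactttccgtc
A match is a description of the letters and not of binding.

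Genes that damp TCR and MAP kinase signals rose beside the factors. Of 29 feedback genes tested, from 31 in the table, 11 rose and none fell, and the median log2 difference was 0.53. Rgs16, a regulator of G-protein signalling, went from 0.61 to 76.4 FPKM in WT and 0.83 to 79.7 in Zak-/-. Dusp6, the ERK phosphatase gene, went from 1.85 to 23.9 FPKM in WT and 1.34 to 23.99 in Zak-/-, and Dusp2, a nuclear phosphatase gene, from 35.02 to 276 FPKM in WT and 32.03 to 331 in Zak-/-. Others of the group were lower at 6 h and passed on p alone. Dgka, which encodes the diacylglycerol kinase that restrains TCR signalling, stood at 814 and 781 FPKM at rest and 426 and 426 at 6 h. Dusp10, a phosphatase gene of p38 and JNK, went from 58.8 to 31.3 FPKM in WT and 76.2 to 32.8 in Zak-/-, and Tnfaip3, the NF-kB inhibitor gene A20, from 85.1 to 58 FPKM in WT and 98.6 to 64.4 in Zak-/-. The feedback genes therefore did not move as 1 group: 18 were higher and 5 lower on p.

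In the MAP kinase cascade to which Map3k20 belongs, 23 of 25 genes were tested. Of these 3 rose and none fell, against 7.64% and 0.512% of all genes tested. Map2k3, which encodes the p38 kinase MKK3, went from 13.9 to 166 FPKM in WT and 15.2 to 169 in Zak-/-, a rise of 11.3-fold in WT and 10.5-fold in Zak-/-. Mapk11, which encodes p38 beta, went from 14.6 to 45.9 FPKM in WT and 13.8 to 54.3 in Zak-/-, and Map3k8, which encodes the kinase Tpl2, from 2.14 to 8.44 FPKM in WT and 1.98 to 8.52 in Zak-/-. Mapk14, the main p38 gene of T cells, stood at 33.7 to 35.8 FPKM in WT and 36.01 to 36.6 in Zak-/- and did not pass. On p 6 members were higher and 11 lower, against 27.4% and 33.2% of all genes tested. Among the lower was Map3k3 (55.3 to 27.1 FPKM in WT and 57.7 to 33.8 in Zak-/-). The list median was 0.05. The sign of that median turned with scaling: it was -0.008 with libraries scaled to a common sum and -0.053 by upper quartile.

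Cytokine and chemokine genes rose from unlike resting levels. Of 30 listed genes 17 passed the expression filter, 13 rose and none fell, and 13 were too low to test, among them Ifng, Il4 and Il17a. A gene near 0 at rest passes the filter through its stimulated libraries, so the share among those tested says little. The median log2 difference was 2.14 over the tested members and 0.52 with no filter on low values. Tnf, an inflammatory cytokine, went from 2.95 to 127 FPKM in WT and 1.76 to 142 in Zak-/-. Ccl4, a chemokine gene, went from 0.19 to 19.6 FPKM in WT and 0.15 to 18.7 in Zak-/-. Xcl1, which encodes lymphotactin, was listed at 0 in both 0 h libraries and stood at 15.6 FPKM in WT and 17.2 in Zak-/- at 6 h. All 3 reached double-digit levels or more in both stimulated libraries. Tnfsf11, which encodes RANKL, went from 1.61 to 35.6 FPKM in WT and 1.40 to 26.01 in Zak-/-. Il2, the T cell growth factor and chosen after its values were seen, was at 0.07 FPKM in WT and listed at 0 in Zak-/- at rest, and at 12.1 and 8.65 at 6 h. Csf2 and Tnfsf14 were, like Xcl1, listed at 0 in both 0 h libraries, and were chosen for that. Tnfsf14 stood at 9.96 and 9.47 FPKM at 6 h, and Csf2, which encodes GM-CSF, at 2.09 and 1.83. Others that rose were well above the floor at rest, and 2 of these were likewise chosen after their values were seen. Cd40lg, which encodes the CD40 ligand, went from 40.2 to 148 FPKM in WT and 39.7 to 125 in Zak-/-, and Lta, which encodes lymphotoxin alpha, from 9.70 to 88.4 FPKM in WT and 11.5 to 93.03 in Zak-/-. Ltb, the lymphotoxin beta gene of resting T cells, did not pass (460.1 to 433 FPKM in WT and 413 to 521 in Zak-/-).

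Genes of both costimulatory and inhibitory receptors rose. Of 15 costimulatory receptor genes tested 7 rose, with a median log2 difference of 1.17, and of 9 inhibitory ones 6 rose, with a median of 1.40, which was 0.60 with no filter on low values. Slamf1 went from 5.16 to 119 FPKM in WT and 4.34 to 126 in Zak-/-. Cd69, an early activation marker that holds cells in the lymph node, went from 17.1 to 278 FPKM in WT and 12.01 to 225 in Zak-/-, and Crtam, an adhesion receptor gene, from 0.55 to 12.8 FPKM in WT and 0.59 to 12.9 in Zak-/-. Cd28 itself stood at 114 to 133 FPKM in WT and 118 to 128 in Zak-/- and did not pass. Cd226 was the one costimulatory gene lower on p (7.37 to 4.64 FPKM in WT and 8.25 to 3.57 in Zak-/-). Among the inhibitory receptors, Pdcd1, which encodes PD-1, went from 6.13 to 37.2 FPKM in WT and 7.38 to 41.2 in Zak-/-. Btla went from 20.99 to 67.9 FPKM in WT and 18.9 to 67.7 in Zak-/-, and Cd200, a ligand gene of an inhibitory receptor, from 4.45 to 21.9 FPKM in WT and 4.39 to 21.8 in Zak-/-. Lag3 had the widest gap between the pairs of these, at 0.70 to 3.48 FPKM in WT and 0.69 to 9.04 in Zak-/-, and an SE of 0.17 on the log2 scale. Ctla4 was lower on p alone (52.02 to 47.9 FPKM in WT and 67.9 to 47.7 in Zak-/-) and Tigit did not pass (6.36 to 6.04 FPKM in WT and 6.64 to 6.86 in Zak-/-).

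Cytokine receptor genes went both ways. Of 34 genes of the IL-2 receptor, JAK, STAT and SOCS list 7 rose and none fell, while 14 were higher and 15 lower on p, and the median was -0.13. Il2ra, the alpha chain that makes the IL-2 receptor high in affinity, went from 10.2 to 99.7 FPKM in WT and 14.2 to 99.96 in Zak-/-, and Il2rb, the beta chain, from 9.76 to 39.2 FPKM in WT and 11.1 to 42.8 in Zak-/-. Socs1, an inhibitor of JAK kinases, went from 4.45 to 30.8 FPKM in WT and 4.88 to 36.4 in Zak-/-. Bcl6, the repressor of follicular helper cells, went from 7.67 to 31.6 FPKM in WT and 6.98 to 40.2 in Zak-/-. In the other direction, the receptor genes that serve resting cells were lower in both pairs without meeting the rule. Il7r, the receptor for the survival cytokine IL-7, stood at 525 to 264 FPKM in WT and 556 to 235 in Zak-/-, Ifngr1 at 445 to 237 FPKM in WT and 514 to 225 in Zak-/-, and the kinase gene Jak1 at 275 to 150.4 FPKM in WT and 283 to 167 in Zak-/-. All 3 passed on p alone.

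Genes of the TCR signalling chain went both ways. Of 32 genes 6 rose and 1 fell, and the median was -0.06. Malt1, the paracaspase gene of the NF-kB branch, went from 20.6 to 98.8 FPKM in WT and 21.7 to 109 in Zak-/-. Lcp2, which encodes the adaptor SLP-76, went from 51.8 to 208 FPKM in WT and 51.6 to 199 in Zak-/-, and Tespa1 from 10.7 to 35.2 FPKM in WT and 10.2 to 33.98 in Zak-/-. Orai1, the pore of the store-operated calcium channel, went from 32.9 to 109 FPKM in WT and 32.6 to 125 in Zak-/-. Grap2, which encodes the adaptor Gads that binds SLP-76, fell (168 to 71.7 FPKM in WT and 171 to 80.5 in Zak-/-), in contrast to Lcp2. Among the receptor chains, Cd3d (386 to 394 FPKM in WT and 363 to 358 in Zak-/-) and Cd3e (231 to 251 FPKM in WT and 231 to 264 in Zak-/-) did not pass, Cd3g was higher on p alone (319 to 407 FPKM in WT and 314 to 397 in Zak-/-), and Cd247 (365 to 259 FPKM in WT and 318 to 210.3 in Zak-/-) and Cd4 (329 to 224 FPKM in WT and 357 to 259 in Zak-/-) were lower on p alone. For calcium, 2 of 19 channel and pump genes tested rose, against 7.64% of all genes tested. Atp2a2, the pump that refills the endoplasmic reticulum, went from 22.5 to 55.7 FPKM in WT and 21.6 to 59.5 in Zak-/-. Stim1, the sensor that opens Orai1, was lower on p alone (50.4 to 28.6 FPKM in WT and 51.7 to 29.04 in Zak-/-), as was Orai2 (70.2 to 33.4 FPKM in WT and 66 to 35.3 in Zak-/-).

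Second messenger genes of the resting cell were mostly lower. Of 14 cyclic AMP genes tested 1 fell and 12 were lower on p, against 33.2% of all genes tested, with a median log2 difference of -0.61. Pde2a, a phosphodiesterase gene, fell (107 to 42.2 FPKM in WT and 111 to 50.2 in Zak-/-). Pde3b (116 to 58.6 FPKM in WT and 127 to 58.1 in Zak-/-) and Pde4d (43.5 to 21.4 FPKM in WT and 50.1 to 24.3 in Zak-/-) were lower on p alone. Of 16 RGS and G-protein regulators 3 rose, 1 fell and 10 were lower on p, with a median of -0.43. Rgs1, a brake on chemokine receptors, went from 4.96 to 28.3 FPKM in WT and 7.06 to 19.7 in Zak-/-, and Rgs3 from 7.16 to 15.7 FPKM in WT and 6.50 to 19.4 in Zak-/-. Rgs2 fell (59.1 to 28.2 FPKM in WT and 61.6 to 25.2 in Zak-/-), so members of 1 family moved apart. Of 29 PI3K and mTOR genes 3 rose, against 7.64% of all genes tested, none fell and 14 were lower on p. The 3 were Eif4ebp1, a translation inhibitor gene (7.44 to 73.6 FPKM in WT and 6.16 to 72.1 in Zak-/-), Sesn2, a leucine sensor (2.48 to 20.9 FPKM in WT and 2.06 to 26.3 in Zak-/-), and Ddit4, an inhibitor of mTORC1 (5.45 to 18.5 FPKM in WT and 4.77 to 21.5 in Zak-/-). Akt1 did not pass (42.8 to 44.3 FPKM in WT and 38.4 to 46.7 in Zak-/-). Sesn1, a relative of Sesn2, was lower on p alone (93.04 to 48.1 FPKM in WT and 85.8 to 43.1 in Zak-/-).

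**Figure D3:**
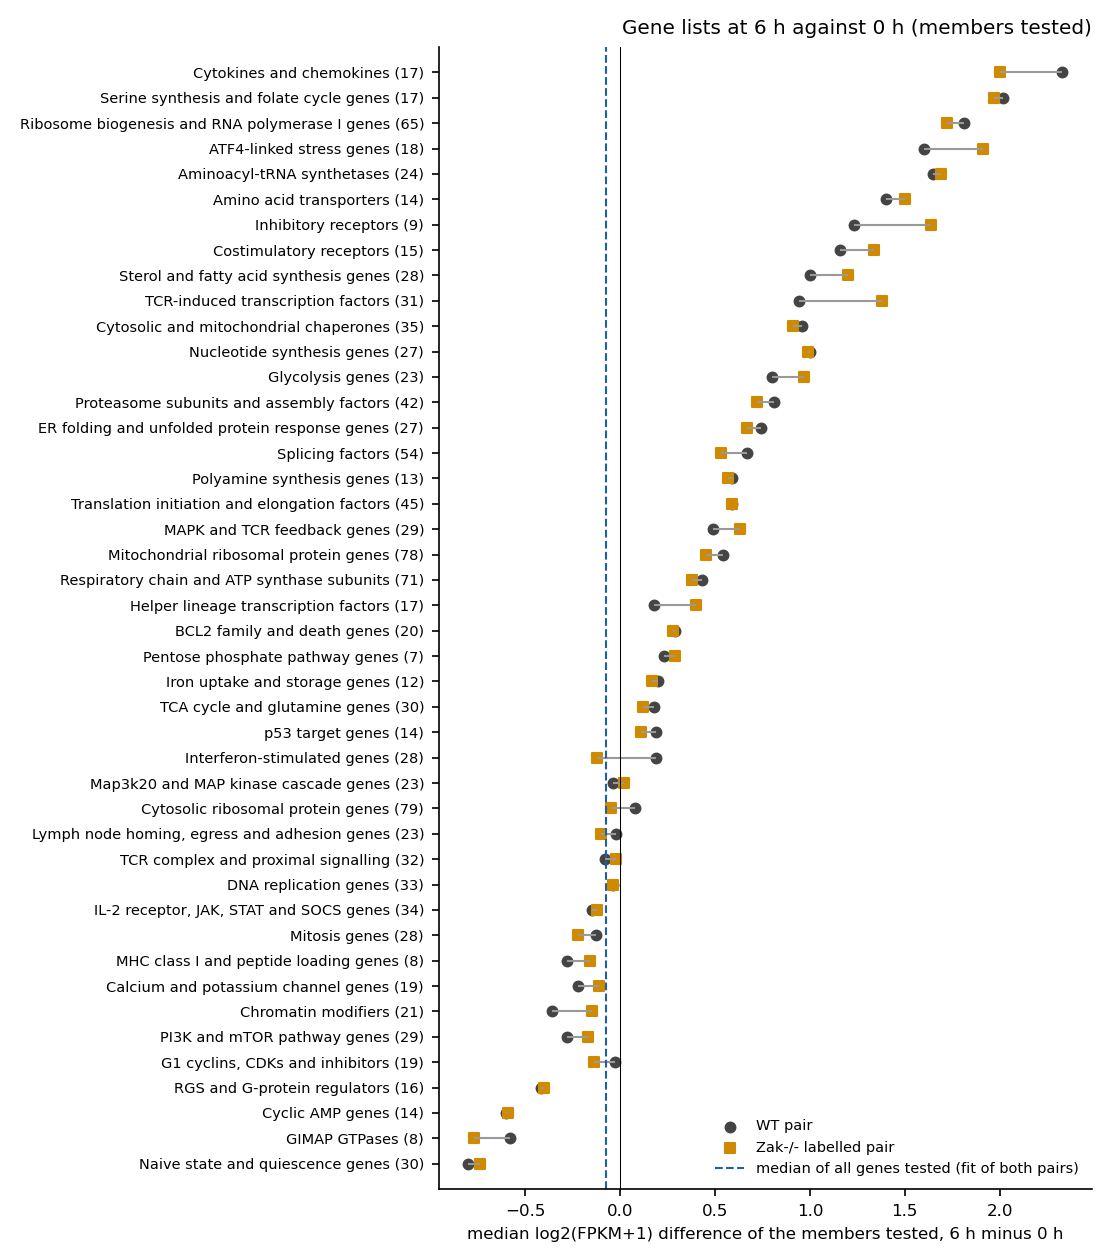
Median log2(FPKM+1) difference between 6 h and 0 h of the tested members of 44 gene lists, with the number of tested members in brackets; circles are the WT pair, squares the pair labelled Zak-/-, and the dashed line is the median of all genes tested (-0.075). Over the tested members the lists run from cytokines (2.33 in WT and 2.0 in Zak-/-) to naive state genes (-0.80 and -0.74), but 13 of 30 cytokine genes were too low to test, and with no filter the fitted cytokine median is 0.52 and 6 lists, not 10, reach 1; both pairs lie near each other on most lines.

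Most genes of amino acid supply rose. Of 14 amino acid transporter genes tested 10 rose and none fell (median log2 difference 1.45, and 1.24 with no filter on low values). Slc7a5, the transporter of large neutral amino acids, went from 5.38 to 146 FPKM in WT and 5.39 to 169 in Zak-/-, and Slc1a5, a glutamine transporter gene, from 59.1 to 499.6 FPKM in WT and 57.4 to 475 in Zak-/-. Slc1a4 went from 0.13 to 11.5 FPKM in WT and 0.11 to 11.8 in Zak-/-. Slc6a9, a glycine transporter gene, stood at 0.22 FPKM in WT and was listed at 0 in Zak-/- at rest, and reached 10.5 and 10.6. Slc38a2, another carrier of small amino acids, did not pass (66.9 to 65.2 FPKM in WT and 66.7 to 65.9 in Zak-/-). Of the 24 aminoacyl-tRNA synthetases and their partners, which load amino acids onto tRNA, 20 rose and none fell (median 1.61). Aars, the alanine enzyme gene, went from 13.6 to 77.3 FPKM in WT and 11.98 to 94.3 in Zak-/-, Cars, the cysteine one, from 10.99 to 68 FPKM in WT and 12.3 to 75.4 in Zak-/-, Yars from 9.16 to 53.96 FPKM in WT and 8.55 to 60.7 in Zak-/- and Tars from 15.8 to 80.1 FPKM in WT and 15.5 to 84.7 in Zak-/-. The 4 without a call were Farsa and Aimp1, higher on p alone, Fars2, the mitochondrial phenylalanine enzyme gene, lower on p alone (8.96 to 6.71 FPKM in WT and 9.19 to 7.64 in Zak-/-), and Qars, the glutamine enzyme gene, which did not pass (50.5 to 48.7 FPKM in WT and 49.3 to 43.7 in Zak-/-).

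Genes linked to ATF4, the factor that answers amino acid shortage, and of serine synthesis rose with them. Of 18 ATF4-linked genes tested, from 22 in the table, 14 rose and 17 were higher on p, with a median of 1.72. It was 1.56 with no filter on low values. Members near 0 at rest, such as Asns and Chac1, pass the filter through their stimulated libraries. Asns, asparagine synthetase, went from 0.13 to 18.4 FPKM in WT and 0.10 to 13.8 in Zak-/-. Chac1, a glutathione-degrading enzyme gene, stood at 0.04 FPKM in WT and was listed at 0 in Zak-/- at rest, and reached 10.8 and 14.7. Pycr1, which makes proline, went from 0.90 to 16.6 FPKM in WT and 1.22 to 14 in Zak-/-. Cebpg, a partner gene of ATF4, did not pass (14.9 to 20.2 FPKM in WT and 16.1 to 16.2 in Zak-/-). Of 17 serine and folate genes tested 11 rose and none fell, with a median of 1.99, which was 1.73 with no filter on low values. The serine synthesis enzyme gene Psat1 had the largest rise of the list (3.57 to 160.1 FPKM in WT and 3.97 to 146 in Zak-/-, 35.2-fold in WT and 29.7-fold in Zak-/-). Phgdh, which opens serine synthesis, went from 14.3 to 187 FPKM in WT and 14 to 203 in Zak-/-. Shmt1, the cytosolic enzyme that turns serine into glycine, went from 2.22 to 58.6 FPKM in WT and 2.66 to 57.3 in Zak-/-, and Shmt2, its mitochondrial counterpart, from 19.6 to 237 FPKM in WT and 19.2 to 243 in Zak-/-. The thymidylate synthase gene Tyms (28.6 to 31.9 FPKM in WT and 33.2 to 22.9 in Zak-/-) did not pass. Amt, of glycine cleavage, was lower on p alone (7.86 to 4.05 FPKM in WT and 7.22 to 4.39 in Zak-/-).

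Promoters of 3 of these genes are shown because they hold TGATGCAA, the composite element of C/EBP and ATF factors. Searched on both strands, it was in 4 of 18 windows of the aminoacyl-tRNA synthetases (22.2%) and in 3 of 17 of the ATF4-linked genes (17.6%), each window of another gene within its list. Of the 44 lists, 9 had a larger share of genes with it than all genes tested. It was in 1.91% of the 784 windows of genes that rose, in none of 55 of genes that fell and in 0.52% of the 10638 windows of all genes tested. The runs are the 250 bases before a RefSeq start on GRCm38.p6, read 5′ to 3′ on the gene's strand, with the element in capitals on whichever strand it lies. They lie at chr2:119350992-119351241 (Chac1, plus strand), chr11:120643749-120643998 (Pycr1, minus strand) and chr8:111033592-111033841 (Aars, plus strand), and the elements begin 193, 103 and 112 bases before the start.
Chac1: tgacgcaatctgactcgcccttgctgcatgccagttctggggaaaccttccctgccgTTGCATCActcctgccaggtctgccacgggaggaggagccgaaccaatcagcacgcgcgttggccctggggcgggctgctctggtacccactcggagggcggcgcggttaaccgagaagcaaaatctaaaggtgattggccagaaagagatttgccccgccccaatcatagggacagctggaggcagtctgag
Pycr1: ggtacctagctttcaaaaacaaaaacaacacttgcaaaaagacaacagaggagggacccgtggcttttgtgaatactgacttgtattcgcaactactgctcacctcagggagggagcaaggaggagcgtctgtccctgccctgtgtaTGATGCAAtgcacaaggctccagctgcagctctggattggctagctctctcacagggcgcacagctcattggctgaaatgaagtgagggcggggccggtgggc
Aars: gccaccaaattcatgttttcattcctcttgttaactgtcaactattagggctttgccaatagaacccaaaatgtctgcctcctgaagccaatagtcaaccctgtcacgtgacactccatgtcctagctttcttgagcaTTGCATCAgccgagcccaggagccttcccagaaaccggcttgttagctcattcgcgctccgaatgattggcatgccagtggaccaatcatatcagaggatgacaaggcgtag
Nothing about the factors follows from a window without these letters.

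Most genes of ribosome assembly rose, and few of the ribosomal proteins themselves did. Of 65 genes of ribosome biogenesis and RNA polymerase I, all of them tested, 53 rose and all 65 were higher on p, with a median log2 difference of 1.75. Mrto4 went from 12.2 to 103 FPKM in WT and 11.5 to 91.6 in Zak-/-, Rrp12 from 2.78 to 25.1 FPKM in WT and 2.46 to 31.99 in Zak-/-, Rrs1 from 8.80 to 63.9 FPKM in WT and 9.27 to 69.2 in Zak-/- and Nolc1, a nucleolar scaffold gene, from 13.9 to 99.1 FPKM in WT and 14.1 to 99.2 in Zak-/-. The least change was that of Taf1d (49.6 to 74.2 FPKM in WT and 49.6 to 50.01 in Zak-/-), and Npm1, the most abundant nucleolar gene of the list, was higher on p alone (654 to 1385 FPKM in WT and 717 to 1056 in Zak-/-). Of 79 cytosolic ribosomal protein genes 1 rose and none fell, 72 did not pass on p, and the median was 0.02. The one was Rps27l (19.03 to 67.9 FPKM in WT and 21.7 to 48.9 in Zak-/-), a paralogue of Rps27, which did not pass (5648 to 5304 FPKM in WT and 5385 to 4254 in Zak-/-). Many ribosomal protein genes have processed copies, and their values are uncertain. Of 78 mitochondrial ribosomal protein genes 8 rose, against 7.64% of all genes tested. On p 55 were higher, against 27.4%, and the median was 0.49. Mrps6 went from 14.5 to 80.7 FPKM in WT and 15.1 to 77 in Zak-/- and Mrpl12 from 25.5 to 81.3 FPKM in WT and 22.3 to 84.7 in Zak-/-.

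**Figure D4:**
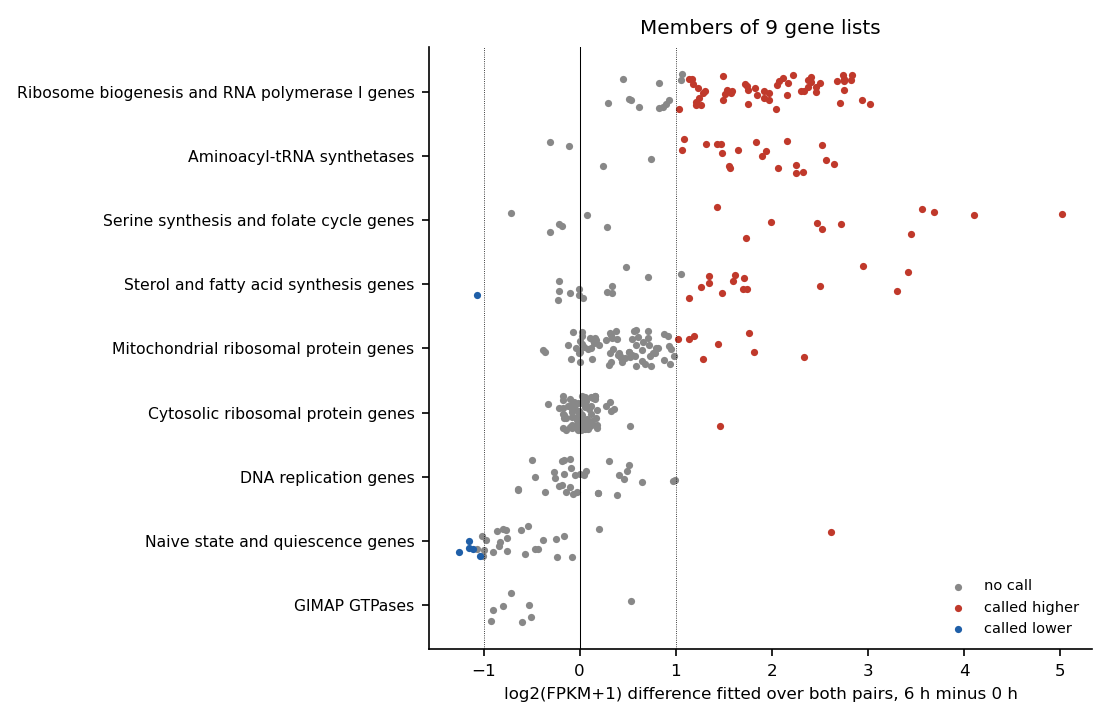
Each point is 1 tested member of 9 gene lists, placed by its log2(FPKM+1) difference between 6 h and 0 h fitted over both pairs; red points rose, blue points fell, grey points met no call, dotted lines mark 2-fold, and vertical scatter within a list has no meaning. Ribosome biogenesis genes all lie right of 0 (lowest 0.29), cytosolic ribosomal protein genes crowd around 0 apart from Rps27l at 1.46, and the naive list lies left of 0 apart from Id3 at 2.62 and Foxp1.

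Translation factors rose in part. Of 45 initiation and elongation factors 9 rose, 34 were higher on p and the median was 0.59. Eif4a1, the helicase gene of cap-dependent initiation, went from 175 to 599 FPKM in WT and 169.9 to 537 in Zak-/-, Eif1a from 9.53 to 43.99 FPKM in WT and 9.30 to 38.6 in Zak-/- and Eif2b3 from 6.97 to 27.2 FPKM in WT and 6.92 to 24.8 in Zak-/-. Eif3c, which can share reads with a copy, went from 76.6 to 225 FPKM in WT and 76.05 to 225 in Zak-/-. Eef1a1, the most abundant elongation factor gene, did not pass (8819.9 to 8693 FPKM in WT and 8716 to 7802 in Zak-/-), and Eef2 was lower on p alone (1855 to 1441 FPKM in WT and 1867 to 1660.3 in Zak-/-). The polyamine gene Srm, spermidine synthase, rose by 20.1-fold in WT and 23.1-fold in Zak-/- (6.77 to 155 FPKM in WT and 6.51 to 173 in Zak-/-), and Eif5a, whose protein carries a modified spermidine, went from 179 to 902 FPKM in WT and 172 to 895 in Zak-/-. They were the 2 of 13 tested genes of that list to rise; Odc1, which opens polyamine synthesis, was higher on p alone (181 to 325 FPKM in WT and 219 to 325 in Zak-/-). Of 27 nucleotide synthesis genes 12 rose and none fell, with a median of 0.96. Nme1 went from 12.2 to 148 FPKM in WT and 14.8 to 138 in Zak-/-, Ctps, which makes CTP, from 5.05 to 36.4 FPKM in WT and 4.95 to 36.4 in Zak-/-, and Cad, which opens pyrimidine synthesis, from 3.95 to 23.8 FPKM in WT and 3.74 to 34.5 in Zak-/-. The ribonucleotide reductase gene Rrm2, which supplies DNA synthesis, was low and lower on p alone (1.84 to 1.38 FPKM in WT and 3.01 to 1.31 in Zak-/-), and Rrm1 did not pass (6.08 to 7.33 FPKM in WT and 5.87 to 6.49 in Zak-/-).

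The E-box CACGTG, which Myc and Max bind, was searched on both strands of the same windows. It was in 129 of 784 windows of genes that rose (16.4%), in 3 of 55 of genes that fell (5.45%) and in 10.3% of the windows of all genes tested. Over all 44 lists, 22 had a larger share of genes with the E-box than all genes tested. It was in 12 of 66 windows of ribosome biogenesis genes and in 5 of 18 of polyamine genes, the latter from 3 genes, but in none of 13 of cytokine genes, 1 of 17 of ATF4-linked genes and 1 of 16 each of serine and folate genes and of amino acid transporters. By gene it was in 18.95% of genes that rose, 7.14% of genes that fell and 12.15% of all genes tested, and in 12 of 56 ribosome biogenesis genes. The largest shares by gene were those of small lists, 4 of 11 p53 target genes and 3 of 9 RGS and G-protein regulators. A link between the E-box and a rise was not tested. The promoter of Cdk4, which encodes a kinase that drives cells out of G1, is shown because its 250 bases before the start held 4 E-boxes, between 172 and 11 bases before it, set in capitals (GRCm38.p6, plus strand, chr10:127063285-127063534).
Cdk4: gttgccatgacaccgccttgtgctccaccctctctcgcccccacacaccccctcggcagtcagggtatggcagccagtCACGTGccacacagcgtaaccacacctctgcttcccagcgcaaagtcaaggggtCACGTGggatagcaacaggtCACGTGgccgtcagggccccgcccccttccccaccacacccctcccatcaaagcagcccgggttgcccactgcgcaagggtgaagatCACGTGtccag
Cdk4 went from 42.96 to 143 FPKM in WT and 47.4 to 141 in Zak-/-.

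Of the energy pathways, glycolysis had the most genes that rose. Of 23 glycolysis genes 7 rose and none fell, with a median of 0.94. Hk2, the inducible hexokinase gene, went from 0.08 to 6.97 FPKM in WT and 0.16 to 7.31 in Zak-/-. Slc16a1, a lactate transporter gene, went from 4.45 to 30.9 FPKM in WT and 4.79 to 29.5 in Zak-/-, Pgam1 from 22.9 to 84.6 FPKM in WT and 21.3 to 81.5 in Zak-/- and Pgk1 from 75.8 to 223 FPKM in WT and 66 to 198 in Zak-/-. The glucose transporter gene Slc2a1 met 2-fold in Zak-/- and missed it in WT (13.1 to 26.4 FPKM in WT and 11.9 to 29.1 in Zak-/-), and Slc2a3 did not pass (11.5 to 9.24 FPKM in WT and 11.3 to 10.3 in Zak-/-). Tkt was the 1 gene of 7 in the pentose phosphate pathway to rise (30.9 to 73.3 FPKM in WT and 29.4 to 79.7 in Zak-/-), and Idh3a the 1 of 30 in the tricarboxylic acid cycle and glutamine list (11.2 to 29.2 FPKM in WT and 11.1 to 28.03 in Zak-/-), where 18 did not pass. Of 71 respiratory chain and ATP synthase subunits 4 rose, against 7.64% of all genes tested. On p 50 were higher, against 27.4%, and the median was 0.45. Atp5g1, a subunit gene of the ATP synthase rotor, went from 36.01 to 139 FPKM in WT and 33.7 to 143 in Zak-/-, and Cycs, cytochrome c, from 16.8 to 53.99 FPKM in WT and 18.7 to 42.6 in Zak-/-. Tfrc, the transferrin receptor gene for iron uptake, went from 7.22 to 58.05 FPKM in WT and 6.45 to 51.1 in Zak-/-, and Hmox1, which releases iron from haem, from 0.34 to 4.78 FPKM in WT and 0.27 to 3.54 in Zak-/-, while Fth1, which stores iron, was lower on p alone (730.3 to 570.3 FPKM in WT and 728 to 539.8 in Zak-/-).

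In the lipid list genes of both sterol and fatty acid synthesis rose. Of 28 tested 14 rose and 1 fell, with a median of 1.10, which was 0.88 with no filter on low values. Sqle, squalene epoxidase, went from 1.62 to 22.1 FPKM in WT and 1.37 to 25.01 in Zak-/-, Cyp51 from 2.77 to 25.3 FPKM in WT and 2.41 to 28.1 in Zak-/- and Idi1 from 0.63 to 7.78 FPKM in WT and 0.40 to 7.36 in Zak-/-. Fasn, the fatty acid synthase gene, was named after its values were seen and rose too (10.8 to 28.9 FPKM in WT and 10.8 to 43.2 in Zak-/-). Of the sterol enzyme genes, Mvk (3.74 to 3.40 FPKM in WT and 3.65 to 3.93 in Zak-/-), Pmvk (8.65 to 7.43 FPKM in WT and 6.54 to 7.51 in Zak-/-), Nsdhl, Ebp and Dhcr7 did not pass, and Mvd, Fdft1 and Sc5d were higher on p alone. Acss2, which makes acetyl-CoA from acetate, fell (32.04 to 15.3 FPKM in WT and 34.9 to 15.7 in Zak-/-). Srebf1, a factor of fatty acid synthesis, did not pass (37.6 to 27.8 FPKM in WT and 36.1 to 35.7 in Zak-/-), and Srebf2, the factor of sterol synthesis, was higher on p alone (51.5 to 61.8 FPKM in WT and 56.3 to 91.8 in Zak-/-).

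Protein folding and turnover genes were mostly higher. Of 35 chaperone genes 14 rose and 33 were higher on p (median 0.97). Hspa4l went from 3.40 to 24.9 FPKM in WT and 3.43 to 28.02 in Zak-/- and Hsph1 from 9.22 to 59.1 FPKM in WT and 8.79 to 61.7 in Zak-/-, both of the HSP110 family, and the mitochondrial chaperone genes Hspd1 and Hspa9 went from 34.9 to 201 FPKM in WT and 37.1 to 167 in Zak-/- and from 45.6 to 215 FPKM in WT and 46.9 to 188 in Zak-/-. Dnajb1, the heat-inducible partner of HSP70, did not pass (27.2 to 28.4 FPKM in WT and 25.4 to 28.3 in Zak-/-). Of 27 genes of the endoplasmic reticulum 8 rose (median 0.72), with Hspa5, its main chaperone, at 63.97 to 329.5 FPKM in WT and 59.1 to 273 in Zak-/- and Sdf2l1 at 2.77 to 21.3 FPKM in WT and 2.34 to 20.6 in Zak-/-. Dnajb9, a stress-induced co-chaperone gene, was higher on p alone (14.8 to 21.1 FPKM in WT and 13.9 to 16.9 in Zak-/-). Of 42 proteasome genes 5 rose and 36 were higher on p (median 0.77), with the activator gene Psme3 at 42.9 to 144 FPKM in WT and 40.96 to 149.7 in Zak-/-. The immunoproteasome genes differed from this: Psmb9 was lower on p alone (86.4 to 67.4 FPKM in WT and 82.4 to 57.5 in Zak-/-), and Psmb8 (110.4 to 98.8 FPKM in WT and 103 to 93.3 in Zak-/-) and Psmb10 (32.8 to 31.4 FPKM in WT and 28.5 to 28.96 in Zak-/-) did not pass. Of 54 splicing genes 8 rose and 45 were higher on p (median 0.63), such as Snrpa (17.5 to 67.1 FPKM in WT and 15.7 to 71.5 in Zak-/-) and Snrpd1 (26.04 to 103 FPKM in WT and 25.2 to 72.5 in Zak-/-).

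Cell cycle genes are read against the 7.64% of all tested genes that rose and the 0.512% that fell. Of 19 G1 genes tested 3 rose, Cdk4 among them, and 1 fell. Ccnd2, cyclin D2, went from 19.4 to 92.9 FPKM in WT and 22.3 to 104 in Zak-/-. Cdkn1b, which encodes the inhibitor p27 of resting cells, fell (157 to 75.1 FPKM in WT and 155 to 76.5 in Zak-/-), while Cdkn1a, which encodes p21, rose (1.07 to 17.7 FPKM in WT and 1.47 to 15.7 in Zak-/-). Of 33 DNA replication genes none rose or fell under limma and the 2-fold rule. On p 8 were higher and 6 lower, against 27.4% and 33.2% of all genes tested. Pcna, the sliding clamp gene, was higher on p alone (95.6 to 204 FPKM in WT and 92.5 to 168 in Zak-/-), and Mcm7, of the helicase, lower on p alone (46.7 to 33.3 FPKM in WT and 46.4 to 32.3 in Zak-/-). Of 28 mitosis genes none rose and 1 fell, Ndc80 of the kinetochore (11.7 to 5.26 FPKM in WT and 13.2 to 5.74 in Zak-/-). On p 9 were lower, against 33.2% of all genes tested. Mki67 stood at 0.51 and 0.80 FPKM at rest and 0.28 and 0.33 at 6 h. Most mitosis genes were near 1 FPKM or below at both times, where the scale compresses differences.

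Of 20 BCL2 family and death genes tested 5 rose and none fell. Bcl2a1b went from 7.08 to 188 FPKM in WT and 6.19 to 132 in Zak-/-, with the same doubt as Bcl2a1d. Bcl2l1, which encodes Bcl-xL, went from 8.56 to 19.7 FPKM in WT and 7.79 to 19.4 in Zak-/-, and Bid, a promoter of cell death, from 4.06 to 11.1 FPKM in WT and 3.25 to 12.3 in Zak-/-. Mcl1 (144 to 148 FPKM in WT and 137 to 124 in Zak-/-) and Bcl2l11, which encodes Bim (30.1 to 30.7 FPKM in WT and 35.6 to 35.8 in Zak-/-), did not pass. Of 14 p53 target genes tested 2 rose, Cdkn1a and the nuclease gene Aen (11.9 to 49.6 FPKM in WT and 12.1 to 49.9 in Zak-/-), and 7 did not pass, such as Ccng1 (46.2 to 44.2 FPKM in WT and 43.5 to 35.5 in Zak-/-).

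Genes of the naive state were mostly lower, by less than 2-fold. Of 30 naive and quiescence genes tested 5 fell and 1 rose, and 26 were lower on p, against 33.2% of all genes tested, with a median log2 difference of -0.78. Klf3, a repressor gene, fell by 2.57-fold in WT and 2.20-fold in Zak-/- (118 to 45.1 FPKM in WT and 115 to 51.8 in Zak-/-). Txnip, which limits glucose uptake, went from 182 to 84.8 FPKM in WT and 175 to 75.04 in Zak-/-. Tob1, an anti-proliferative gene, went from 61.9 to 27.3 FPKM in WT and 64.3 to 30.2 in Zak-/-, and Rasgrp2, which activates the integrin switch Rap1, from 105 to 45.2 FPKM in WT and 114 to 52.5 in Zak-/-. The best-known factors of quiescence were lower on p alone. Klf2 stood at 317 to 174 FPKM in WT and 312 to 187 in Zak-/-, Tcf7 at 1021 to 580.1 FPKM in WT and 985 to 607 in Zak-/-, Lef1 at 362 to 198 FPKM in WT and 340.0 to 176 in Zak-/- and Foxo1 at 42.9 to 31.6 FPKM in WT and 40.1 to 29.4 in Zak-/-. Btg1 (215 to 208 FPKM in WT and 208 to 171 in Zak-/-) and Bach2 (53.9 to 48.5 FPKM in WT and 53.1 to 53.1 in Zak-/-) did not pass. Id3, an inhibitor of E proteins, rose against the list (4.81 to 31.2 FPKM in WT and 4.87 to 38.9 in Zak-/-). Of 8 GIMAP GTPase genes, a family of lymphocyte survival, none met the rule and 7 were lower on p (median -0.66), such as Gimap4 (1040.1 to 622 FPKM in WT and 1038 to 495 in Zak-/-). Gimap5 was higher on p alone (35.6 to 54 FPKM in WT and 41.5 to 57.95 in Zak-/-).

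Homing genes went both ways. Of 23 genes of lymph node homing, egress and adhesion tested 4 rose and 2 fell, with a median of -0.01. Of all genes tested 7.64% rose and 0.512% fell. S1pr1, which lets cells leave the lymph node, fell (364 to 172 FPKM in WT and 383 to 158 in Zak-/-). Ccr7, a receptor gene for entry into lymph nodes, was lower on p alone (502 to 389.6 FPKM in WT and 523 to 428 in Zak-/-). The receptors for inflamed tissue rose from near the floor: Ccr8 went from 0.82 to 13.1 FPKM in WT and 1.11 to 18.7 in Zak-/-, Ccr4 from 0.39 to 6.24 FPKM in WT and 0.39 to 7.80 in Zak-/- and Cxcr3 from 0.19 to 4.02 FPKM in WT and 0.08 to 3.74 in Zak-/-. Itgb2, the beta chain of LFA-1, rose (50.8 to 109.9 FPKM in WT and 54.1 to 119 in Zak-/-).

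Of 17 helper lineage factors tested 3 rose and none fell. Foxp3, the lineage factor of regulatory T cells, went from 14.1 to 40.3 FPKM in WT and 15.99 to 44.7 in Zak-/-. Markers of regulatory T cells summed to 194 and 222 FPKM at 0 h in WT and Zak-/- and to 334 and 343 at 6 h. Of the 7 markers Foxp3 and Il2ra rose, Tnfrsf18 was higher and Ctla4 lower on p alone, and Ikzf2, Ikzf4 and Nrp1 did not pass. The part of a change in the share of such cells in the Foxp3 result was not tested. Gata3, the factor of Th2 cells, was higher on p alone (8.19 to 9.40 FPKM in WT and 7.24 to 9.85 in Zak-/-), and Tbx21, that of Th1 cells, was too low to test. Memory and effector markers summed to 35.3 and 38.9 FPKM at 0 h and 78.4 and 81.5 at 6 h, with Il2rb and Cxcr3 the 2 members to rise, and their part was not tested either. Of 21 chromatin genes tested 1 rose, against 7.64% of all genes tested. It was the H3K27 demethylase gene Kdm6b (15.2 to 70.3 FPKM in WT and 13.5 to 126 in Zak-/-), whose pairs lay apart by 4.41-fold against 8.77-fold.

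Immune defence genes showed no call. Of 28 interferon-stimulated genes tested none rose or fell under limma and the 2-fold rule. On p 7 were higher and 8 lower, against 27.4% and 33.2% of all genes tested. Ifit2 was lower on p alone (30.9 to 15.6 FPKM in WT and 28.96 to 12.3 in Zak-/-), and Irf9 did not pass (20.9 to 26.6 FPKM in WT and 19.7 to 21.98 in Zak-/-). The list median was 0.19 in WT and -0.12 in Zak-/-, a difference that was not tested. Of 8 genes of MHC class I and peptide loading none met the rule, with 2 higher and 3 lower on p. Tap1, which brings peptides to MHC class I, was lower on p alone (123 to 84.9 FPKM in WT and 128 to 93.4 in Zak-/-), B2m did not pass (1989.9 to 2138 FPKM in WT and 1864 to 1666 in Zak-/-), and Erap1, which trims the peptides, was higher on p alone (16.1 to 34.1 FPKM in WT and 17.2 to 31.4 in Zak-/-).

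The 48 h libraries, which share the 0 h controls, are set beside these values as a description. Of the 791 genes that rose at 6 h, 599 were still at least 2-fold above 0 h at 48 h in both genotypes and 136 were back within 2-fold of it. Against 6 h, 62 had gone up by a further 2-fold and 66 had come back by 2-fold in both. Ccr8 stood at 1.32 FPKM in WT and 1.45 in Zak-/- at 48 h, Foxp3 at 5.90 and 7.65, and Bcl6 at 5.60 and 5.88, each below its 6 h level in both genotypes. Cd200, in contrast, stood at 172 and 167, and Pgk1 at 987 and 943. Of the 53 genes that fell, 43 were still at least 2-fold below 0 h and 30 had fallen by a further 2-fold. Pde2a was at 2.93 and 3.26 FPKM and S1pr1 at 13.2 and 14.1. Ndc80 had gone the other way, to 30.5 and 27.6 FPKM.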

How the data were processed

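RNA of CD4+ T cells was sequenced as 6 libraries, 1 per genotype and time, and 4 of them were compared here. The authors deposited 1 FPKM value per gene and library. Per the submitters' processing notes, reads were handled with Bowtie and RSEM on mm10, each version not given in the sources used here. Total depth is unknown from FPKM. Among 271 chemosensory receptor genes the commonest value above 0 was 0.07 FPKM in WT at 0 h, WT at 6 h and Zak-/- at 0 h. In Zak-/- at 6 h, 0.06 and 0.07 were equally common. Of 18446 genes 18326 could be matched to a reference symbol and 120 could not.

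Values were compared as log2(FPKM+1) without rescaling, with limma 3.58.1 in R 4.3.3 (lmFit with genotype and time, eBayes with a trend). The fit left 1 residual degree of freedom per gene, moderated with 35.9 prior degrees of freedom, and p-values were adjusted by Benjamini-Hochberg over 10347 genes. Nothing in the labels ties the libraries to separate mice, so the p-values measure the spread between these libraries. The code of the fit was run on simulated data with the same spread for every gene and changes larger than the 2-fold rule. That run does not test calls near 2-fold or the spread between mice. Python 3.11.15, numpy 2.4.6, pandas 2.3.3 and matplotlib 3.10.9 were used for the rest.

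Members of 44 gene lists and 8 marker lists were matched by symbol (1334 of 1344). The genes compared and the lists were chosen with earlier results of these data known. Lists are given as counts and medians without a test. Named genes were the 15 called genes with the largest change each way, by the smaller of the pairs, at a mean of 5 FPKM or more; up to 4 called members of each list each way; uncalled list members with their values; and the 3 genes nearest the 2-fold rule on each side. Gene models were passed over. Promoter windows came from RefSeq; 8400 of the genes tested had 1 or more, and those on chromosome 18 were not used here. Alternatives changed the pseudocount, filter, scaling, fit, fold rule and libraries. Some genes are not reported here.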

Additional observations from a re-analysis of the deposited data

Results flagged for a closer look

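In 2 genes the WT and Zak-/- pairs went in opposite directions by 2-fold or more, and this difference between the genotypes was not tested. H4c4, a histone H4 gene with near-identical copies, stood at 0.28 FPKM at 0 h and 2.61 at 6 h in WT and at 3.78 and 0.59 in Zak-/-, log2 differences of 1.496 and -1.588. The gene model LOC108167694 stood at 1.93 and 0.34 FPKM in WT and at 0.74 and 2.74 in Zak-/-, log2 differences of -1.129 and 1.104. All of these values are below 4 FPKM.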

How the results depend on the processing

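The 791 genes that rose stayed within 1.5 times under the alternatives of pseudocount, filter, scaling, fit and left-out library, between 534 with a pseudocount of 5 FPKM and 946. With libraries left out in turn, the range was 902 to 946, and for genes that fell 126 to 160 against 53. There, 2-fold was asked of the difference of means and not of each pair, a weaker rule. What a library did and what the rule did cannot be told apart in these counts. The lone library at a time was assumed to vary like the others. The genes that fell numbered 115 with a pseudocount of 0.1 FPKM, 18 with 5, 103 with a common sum and 150 by upper quartile. All 53 were among the genes found with 0.1, with a common sum and by upper quartile. A rule of 1.5-fold gave 1464 higher and 854 lower, and 4-fold gave 218 and 0. Lists with a median log2 difference of 1 or more numbered 10, and 6 with no filter on low values, which adds genes near 0. The median of the Map3k20 and MAP kinase list, 0.05, was -0.008 with a common sum, -0.053 by upper quartile, and between -0.041 and 0.052 with libraries left out. The median of all genes moved at most from -0.058 to -0.156 (WT) and from -0.08 to -0.164 (Zak-/-), by upper quartile. The cause was not tested where none is named. Over all alternatives and named genes, no called value turned its direction, 2516 values stayed on their side of the rule, 126 lost a call and 40 gained one. Of the calls lost, 77 were lost to the 4-fold rule. For a called gene a turn was hardly possible, so its absence says little. Changes of the filter, fold rule, variance trend and genotype term, and the use of all 6 libraries, leave the fitted difference as it is. A pseudocount cannot change the sign of a pair, and scaling shifted the median of all genes by far less than 2-fold. Leaving out 1 library cannot turn a gene whose 0 h and 6 h values do not overlap. The genotype served as the pair, and leaving it out of the fit gave 791 and 53 again. The 2-fold rule in each pair, which does not use the fit, gave the same genes alone. The equal counts are thus no check of the pairing. With 1 library per genotype and time, the spread between mice is unknown.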
